A study of Homo sapiens with 24 samples.

Results

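Antisense-named features are genes that annotations label by a coding gene followed by -AS, because they are transcribed from the strand opposite it. The features described here are the abundant ones. Members were all features whose name ends in -AS with or without a number and whose mean over the 24 libraries was at least 20 CPM (a feature's share of its library's counts, scaled to a common total of 1e6), less 14 at that level whose names start with one of a set of left-out gene symbols. They are 403 of 61248 features, and 403 of 1807 features with such a name. The level that chose them was measured in the same libraries, so their abundance is a description and not a finding. Members were chosen to be read as reporting the coding gene in their name, and that reading was checked before the comparisons.

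RNA came from H7, a human embryonic stem cell line. The groups were BRAT1 KO lines 1 and 2 and Control lines 1 and 2, each at day 14, as neural progenitors after ventral differentiation, and at day 0, as undifferentiated stem cells. Each line and day has 3 biological replicates lettered A to C, so each genotype and day has 6 libraries from 2 lines. BRAT1 binds the Integrator endonuclease INTS11, and the labels do not state the edited alleles, the editing of the Control lines or whether a line is 1 clone. Poly(A) RNA was made into libraries by Click-Seq, which adds a sequencing adapter by click chemistry in place of ligation.

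A natural antisense transcript shares sequence, in reverse complement, with the messenger RNA on the other strand wherever their exons overlap. A count can therefore be told apart only by strand: when reads are assigned to the strand opposite to their RNA, the messenger of a coding gene is counted under the antisense name. Antisense genes with roles of their own are also known, and many are transcribed at low levels beside an active promoter.

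The sequences where members and coding exons overlap are what such a reading rests on, and 4 of the members with most counts are shown, 2 opposite the gene in their name and 2 opposite another gene. Each is a 90-base window of the coding gene's exon on GRCh38, written 5′ to 3′ on the coding strand from GENCODE release 29, with capitals for bases that also lie in an exon of the -AS feature. PCBP1 lies at chr2:70088400-70088489 on the plus strand, opposite PCBP1-AS1, and encodes a poly(C)-binding protein of RNA processing. MIF lies at chr22:23894772-23894861 on the plus strand, opposite MIF-AS1, and encodes the cytokine macrophage migration inhibitory factor. EIF4B lies at chr12:53018900-53018989 on the plus strand, opposite TNS2-AS1, and encodes a translation initiation factor. FDPS lies at chr1:155320409-155320498 on the plus strand, opposite RUSC1-AS1, and encodes farnesyl diphosphate synthase of the isoprenoid pathway.
PCBP1: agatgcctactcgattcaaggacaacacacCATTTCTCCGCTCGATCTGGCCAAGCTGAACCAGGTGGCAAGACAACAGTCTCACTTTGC
MIF: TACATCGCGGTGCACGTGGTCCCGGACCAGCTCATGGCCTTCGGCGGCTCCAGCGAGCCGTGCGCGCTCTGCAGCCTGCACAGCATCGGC
EIF4B: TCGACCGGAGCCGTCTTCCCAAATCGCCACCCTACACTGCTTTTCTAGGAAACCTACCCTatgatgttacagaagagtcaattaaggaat
FDPS: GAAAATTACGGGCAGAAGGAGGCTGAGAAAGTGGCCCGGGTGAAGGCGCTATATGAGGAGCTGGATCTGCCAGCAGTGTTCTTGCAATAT
The MIF-AS1 transcript reads the MIF window on the minus strand as follows.
MIF-AS1: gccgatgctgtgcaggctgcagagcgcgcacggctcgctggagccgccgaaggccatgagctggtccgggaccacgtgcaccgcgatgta

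By annotation the reading held for part of the members. In 294 of 403 the coding exon with the largest overlap on the other strand belonged to the gene in the name, by at least 100 bp. In 47 it belonged to another coding gene. STARD4-AS1 overlapped NREP by 888 bp and STARD4 by 124 bp, TNS2-AS1 overlapped EIF4B by 733 bp and TNS2 by 364 bp, and RUSC1-AS1 overlapped FDPS by 693 bp and RUSC1 by 398 bp. PITX1-AS1 overlapped exons of MACROH2A1, a histone variant gene, by 4968 bp and none of PITX1. In 57 members less than 100 bp of coding exon lay opposite, and 5 members were not placed in release 29. DIRC3-AS1, with 804 CPM, lay within the body of DIRC3 with no exon overlap, and SIX3-AS1 lay 25 bp from SIX3. The members are therefore called by their own names here, with the gene opposite given where it differs.

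The count of features at the level differed with this geometry. Of all -AS features opposite an exon of the gene in the name, 307 of 769 (39.9%) had at least 20 CPM, and 47 of 96 (49.0%) did where the exon belonged to another coding gene. Of those with less than 100 bp of coding exon opposite, 58 of 929 (6.24%) did. These counts include the features left out by name.

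Counts under the -AS name were set beside those under the coding name, summed over the 24 libraries. More were found under the -AS name in 373 of 401 members whose coding name is in the files (93.0%), with a median ratio of 12. The level was part of the choice of members and favours this direction, so pairs were also taken whenever the 2 names together reached 20 CPM. Among 439 such pairs with exons that overlap by at least 100 bp, 332 (75.6%) had more under the -AS name, with a median ratio of 7.42. Among 85 pairs with the -AS feature in the gene body but no shared exon, 26 (30.6%) did, with a median ratio of 0.0561. PCBP1-AS1 held 347789 counts and PCBP1 8443. MIF-AS1 held 262610 counts and MIF 1160.

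**Figure D1:**
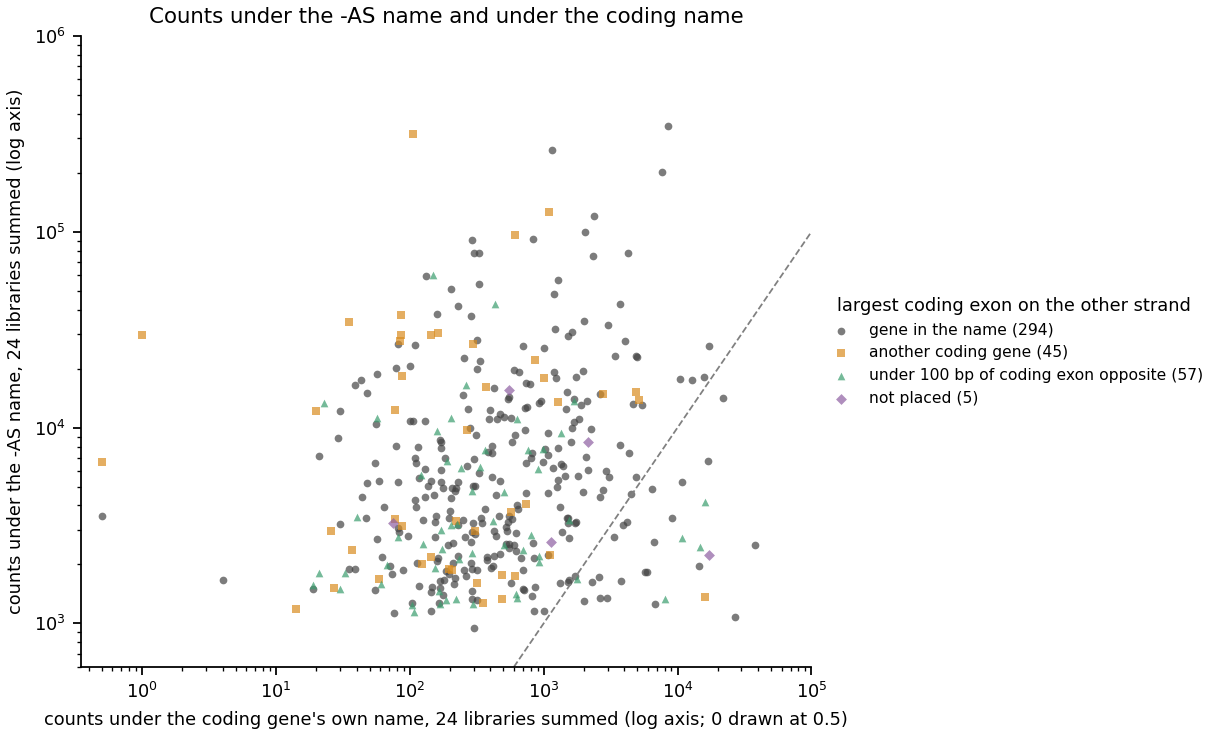
Counts under the -AS name (vertical, log axis) against counts under the own name of the coding gene (horizontal, log axis, 0 drawn at 0.5), each summed over 24 libraries, 1 point a member, with shape and colour for the coding exon on the other strand and a dashed line at equal counts. Of 401 members, 373 lie above the line, also where another coding gene or less than 100 bp of coding exon lies opposite.

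In 28 members the coding name held more. FARP1-AS1 held 2503 counts and FARP1 37788, TTN-AS1 held 1083 and TTN 26843, and EPB41L4A-AS1 held 14226 and EPB41L4A 21815. These 3 were picked after their values were seen. TTN-AS1 overlaps 11381 bp of TTN exons, so an overlap of exons did not fix which name held more. SIX3-AS1, which shares no exon with SIX3, held 1686 counts and SIX3 held 1763. At 20 CPM the choice was sharp, with PSMA3-AS1 at 20.04, FGD5-AS1 at 20.3 and CYP2U1-AS1 at 20.4 CPM just inside, and C1orf50-AS1 at 19.98, RALGPS2-AS1 at 19.9 and LIPT2-AS1 at 19.9 CPM just outside.

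Members held 7.65% to 9.13% of all counts in day 14 KO libraries (median 8.46%) and 9.10% to 9.90% in day 14 Control libraries (median 9.70%). At day 0 they held 7.82% to 9.81% in KO libraries and 8.63% to 10.2% in Control libraries. Library totals ran from 1407832 to 3726227 counts. Member levels ran from 20.04 to 6417 CPM with a median of 76.8, and 16 members had at least 1000 CPM. By group mean, 358 members reached 20 CPM in day 14 KO, 370 in day 14 Control, 335 in day 0 KO and 332 in day 0 Control libraries.

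Facts of all libraries bear on these values. Counts under BRAT1 itself were 46.2 ± 38.0 CPM in day 14 KO libraries and 252 ± 45.9 CPM in day 14 Control libraries (SD, n = 6 each). The KO libraries spread widely, from 7.66 to 86.8 CPM (median 44.1), and all were below the Control libraries, at 186 to 317 CPM (median 257). Under BRAT1 the day 0 Control libraries had at most 2.91 CPM, so that name checks nothing at day 0. Of the labelled cell types, 7 neural progenitor genes under their own names summed to 540 to 1003 CPM in day 14 KO and 267 to 481 CPM in day 14 Control libraries, with none at 0. They summed to 21.5 to 56.2 CPM in day 0 KO and 28.2 to 124 CPM in day 0 Control libraries. Sums under own names leave out any counts held under an -AS name. VIM, among the 7, averaged 228 CPM in day 14 KO and 163 CPM in day 14 Control libraries under its own name. VIM-AS1 held far more, with a lower median in day 14 KO than in day 14 Control libraries, as given below. The 6 pluripotency genes summed to 46.5 to 116 CPM in day 14 KO, 52.0 to 97.7 in day 14 Control, 37.2 to 262 in day 0 KO and 86.7 to 194 in day 0 Control libraries, and these genes differed in direction. L1TD1 averaged 0.292 CPM in day 14 KO, 0.534 in day 14 Control, 80.0 in day 0 KO and 71.8 in day 0 Control libraries, and POU5F1 averaged 4.61 CPM in day 14 KO, 2.58 in day 14 Control, 36.7 in day 0 KO and 37.3 in day 0 Control libraries. LIN28A was higher at day 14, at 57.3 CPM in KO and 61.8 in Control against 12.4 in KO and 11.2 in Control at day 0, and TDGF1 was at 0 in all day 14 Control libraries. The 4 neural crest and mesenchyme genes summed to 0.744 to 22.3 CPM in day 14 KO and 57.9 to 102 CPM in day 14 Control libraries, with SOX10 at a mean of 9.72 in KO and 69.4 in Control, TFAP2B at 0.464 in KO and 10.4 in Control, COL1A1 at 0.621 in KO and 2.75 in Control, and COL3A1 at 1.19 in KO and 0.450 CPM in Control. The 4 neuron genes summed to 32.1 to 101 CPM in day 14 KO and 7.63 to 32.3 CPM in day 14 Control libraries, and to 0 to 4.27 CPM in day 0 KO and 0 to 36.1 CPM in day 0 Control libraries. At day 14 DCX averaged 33.0 CPM in KO and 7.99 in Control, STMN2 17.4 in KO and 6.55 in Control, and ELAVL4 6.61 in KO and 3.21 in Control. TUBB3 was not higher, at 1.53 CPM in KO and 1.74 in Control. A set of 125 -AS and coding pairs with overlapping exons was chosen in these same 24 libraries. Each had at least 1000 counts under the -AS name and at most 5% of that number under the coding name. A low percent was thus fixed by the choice and is no measure of all pairs. Over these 125 pairs, counts under the coding name as a percent of those under the -AS name were 2.59 ± 0.678 in day 14 KO and 1.75 ± 0.280 in day 14 Control libraries (SD, n = 6 each, exact two-sided permutation p = 0.0173). Libraries of the same line were permuted as separate samples, so this p measures the spread between libraries and not between lines. In bulk RNA, fewer cells of a type and less RNA per cell cannot be told apart.

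The members with most counts are named by the sum of reads under each name, which is not corrected for length. PCBP1-AS1 (ENSG00000179818, chromosome 2, 69962263 to 70103220, minus strand) had 2964 to 4423 CPM (median 3723) in day 14 KO and 5152 to 6162 CPM (median 5613) in day 14 Control libraries. At day 0 it had 7105 to 9819 CPM (median 7933) in KO and 7473 to 9453 CPM (median 7946) in Control libraries. All 6 day 14 KO libraries were below all 6 day 14 Control libraries, and at day 0 the genotypes overlapped. MIF-AS1 (ENSG00000218537, chromosome 22, 23894426 to 23898930, minus strand) had 873 to 1983 CPM (median 1195) in day 14 KO and 2320.2 to 4091 CPM (median 3030.3) in day 14 Control libraries. Its day 0 values were 4532 to 13469 CPM (median 7367) in KO and 4143 to 16426 CPM (median 8042) in Control libraries, a spread of several fold within each genotype. Replicate A was lowest in every line at day 0, at 4143 to 6505 CPM, and B and C were at 6769 to 16426 CPM.

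STARD4-AS1, whose exons lie mainly opposite NREP, a neuronal regeneration related gene, had 5849 to 8168 CPM (median 6997) in day 14 KO and 6104 to 7229 CPM (median 6964) in day 14 Control libraries. At day 0 it had 1420.2 to 3218 CPM (median 2478) in KO and 2622 to 3914 CPM (median 2900.3) in Control libraries. Genotypes overlapped on both days, and every day 14 library was above every day 0 library. NREP under its own name went the other way, at a far lower level. It averaged 18.6 CPM in day 14 KO, 22.1 in day 14 Control, 27.5 in day 0 KO and 37.8 in day 0 Control libraries. Its day 14 against day 0 log2 fold change was -1.07 in KO lines (edgeR adjusted p = 0.0301) and -1.28 in Control lines (edgeR adjusted p = 0.011). VIM-AS1, opposite the intermediate filament gene vimentin, had 3700.2 to 5439 CPM (median 4708) in day 14 KO and 4632 to 7035 CPM (median 5517) in day 14 Control libraries, against 81.4 to 700.4 CPM (median 166) in day 0 KO and 131 to 495 CPM (median 261) in day 0 Control libraries. It stood far above its day 0 level in all 12 day 14 libraries.

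TNS2-AS1, RPL30-AS1, RUSC1-AS1, NIFK-AS1 and MRPS9-AS1 had lower means at day 14 than at day 0 in both genotypes. NIFK-AS1, opposite a nucleolar partner of the proliferation antigen Ki-67, averaged 248 ± 41.5, 392 ± 92.7, 3146 ± 1315 and 3288 ± 1689 CPM in day 14 KO, day 14 Control, day 0 KO and day 0 Control libraries (SD, n = 6 each). The day 0 libraries of NIFK-AS1 and of RPL30-AS1, opposite a protein of the large ribosomal subunit, spread from 1355 to 5755 CPM and from 1079 to 5958 CPM. This spread went with the replicate letter, since replicate A was lowest in all 4 lines. NIFK-AS1 was at 1355 to 1629 CPM in replicate A and at 3125 to 5755 CPM in B and C, and RPL30-AS1 was at 1079 to 1526 CPM in A and at 2155 to 5958 CPM in B and C. RUSC1-AS1 ran from 957 to 3687 CPM at day 0, also with replicate A lowest in all 4 lines. TNS2-AS1 and MRPS9-AS1, the latter opposite a mitochondrial ribosomal protein gene, spread less. For RUSC1-AS1, TNS2-AS1 and MRPS9-AS1, all day 14 KO libraries were below all day 14 Control libraries.

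**Figure D2:**
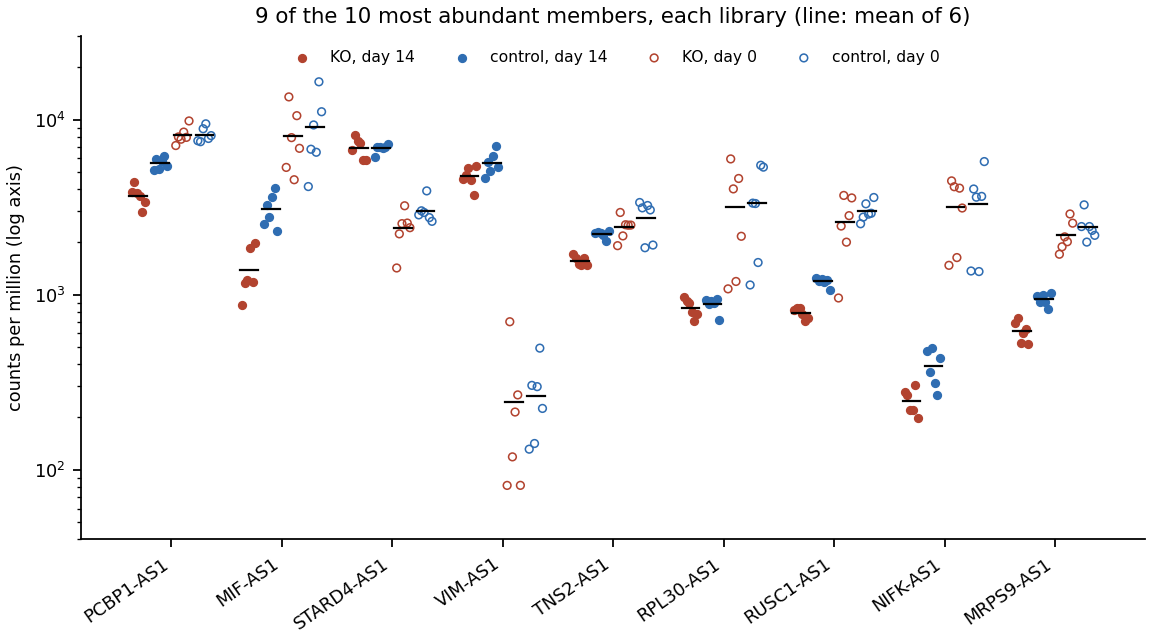
CPM (log axis) in every library of 9 of the 10 members with most counts, with filled points for day 14, open points for day 0, red for KO, blue for Control and a line at the mean of 6. STARD4-AS1 and VIM-AS1 are higher at day 14, the others shown lower, and MIF-AS1 is at 1376 CPM in day 14 KO against 3102 CPM in day 14 Control libraries.

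Differences that went with loss of BRAT1 in neural progenitors were read from KO against Control at day 14. By edgeR 33 of 397 tested members were higher in KO and 109 were lower, at an adjusted p under 0.05 over all 11408 features. Of all tested features 21.7% passed, 11.0% higher and 10.7% lower. Features of other names at 20 CPM or more, chosen by the same level, had 388 higher and 656 lower of 3330. The median log2 fold change was -0.22 over members, 0.07 over all features and -0.10 over the other abundant features. Members with 6 libraries against 6 that did not overlap numbered 19 higher and 68 lower, against 4.75% and 6.0% of all tested features.

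Member counts in other fits are given beside those of all features in the same fit. With all 24 libraries in 1 fit, 2 members were higher and 14 lower, where 57 of all 10971 features were higher and 184 lower. With counts summed per line, 8 members were higher and 70 lower, where 572 of all 19582 features were higher and 842 lower. With the percent of counts under coding names as a covariate, 42 members were higher and 40 lower, where 753 of 11408 features were higher and 640 lower. That percent has -AS counts in its denominator and differs by genotype, so this fit cannot tell it apart from genotype. The part of that percent in the genotype difference was not tested. With only -AS features in the fit, an alternative chosen after seeing the data, 66 members were higher and 70 lower. Members were 397 of the 772 features of that fit, so its scaling centres the members themselves and the even split is no measure of their balance. Replicates of the same line entered the test as separate samples, so p-values measure the spread between libraries and not between lines.

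**Figure D3:**
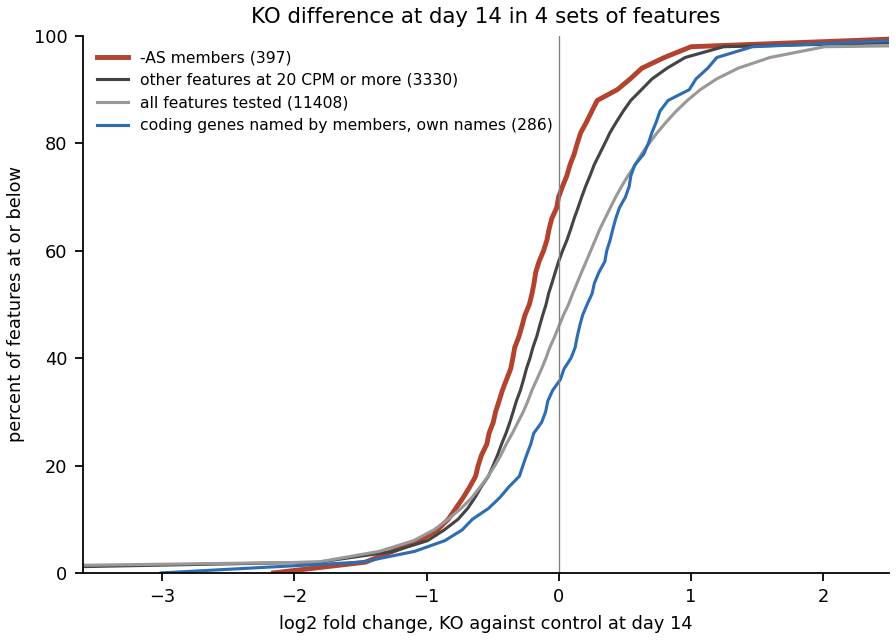
Cumulative percent of features (vertical) at or below each log2 fold change of KO against Control at day 14 (horizontal) for the 397 tested members, 3330 other features at 20 CPM or more, all 11408 tested features and 286 coding genes named by members under their own names. The member curve lies left of the others through the middle, with medians of -0.22, -0.10, 0.07 and 0.21.

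Calls were also counted by the gene opposite. Of members opposite an exon of the gene in their name 23 of 288 were higher and 92 lower, and of those opposite another coding gene 4 of 47 were higher and 11 lower. Of those with less than 100 bp of coding exon opposite, 6 of 57 were higher and 6 lower. The coding genes in the names, counted under their own names, had 30 higher and 16 lower of 286, with a median of 0.21. The 2 sets thus did not have the same balance, and the difference between them was not tested. They are not matched pairs, since only 286 of 393 coding names passed the count filter, against 397 of 403 members.

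Of the 8 members named for the largest increases, GRM3-AS1 (ENSG00000233073, chromosome 7, 86784226 to 86786670, minus strand) lies opposite GRM3, a metabotropic glutamate receptor gene. It had 75.6 to 203 CPM (median 139) in KO and 11.1 to 22.4 CPM (median 14.2) in Control libraries at day 14. All KO libraries were above all Control libraries, with a log2 fold change of 3.12 (SE 0.26, edgeR adjusted p = 1.25e-08). The KO lines differed, at 186 ± 17.7 CPM in line 1 and 90.9 ± 18.4 CPM in line 2 (SD, n = 3 each), a line 2 over line 1 log2 fold change of -1.09 (SE 0.22, edgeR adjusted p = 0.00587). Each KO line was above both Control lines.

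SIX3-AS1 (ENSG00000236502, chromosome 2, 44940154 to 44941873, minus strand) lies 25 bp from SIX3, an anterior forebrain transcription factor gene, with no exon opposite. It had 57.6 to 113 CPM (median 67.8) in KO and 5.18 to 13.2 CPM (median 10.4) in Control libraries, with no overlap and a log2 fold change of 2.93 (SE 0.24, edgeR adjusted p = 5.88e-10). Counts under SIX3 itself averaged 84.6 ± 33.6 CPM in KO and 8.15 ± 5.09 CPM in Control libraries (SD, n = 6 each), with 3.34 (SE 0.35, edgeR adjusted p = 1.43e-06). This was a pair in which both names rose, and since no exon is shared, SIX3-AS1 is not described as a count of SIX3 messenger.

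SLC8A1-AS1, opposite a sodium-calcium exchanger gene, had 87.5 to 124 CPM (median 102) in KO and 15.3 to 36.8 CPM (median 29.6) in Control libraries, a log2 fold change of 1.88 (SE 0.20, edgeR adjusted p = 5.11e-08). FOXD1-AS1, opposite a forkhead transcription factor gene, had 90.4 to 177 CPM (median 143) in KO and 30.7 to 59.1 CPM (median 49.2) in Control libraries, with 1.55 (SE 0.20, edgeR adjusted p = 1.53e-06). Neither member's groups overlapped. CADM3-AS1, opposite an immunoglobulin-family adhesion gene of neurons, had 274 to 449 CPM (median 358) in KO and 150.0 to 204 CPM (median 177) in Control libraries, with 1.03 (SE 0.13, edgeR adjusted p = 1.98e-06). CNTN4-AS1, opposite a contactin of axons, had 39.4 to 85.4 CPM (median 60.1) in KO and 19.4 to 42.3 CPM (median 28.1) in Control libraries, and the groups overlapped. The change of CNTN4-AS1 was 1.02 (SE 0.22, edgeR adjusted p = 0.0013) on the log2 scale.

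NARF-AS2 and RNASEH2B-AS1 complete the 8. NARF-AS2, which shares 101 bp with exons of NARF, a gene of a prelamin-binding nuclear protein, averaged 55.4 ± 14.8 CPM in KO and 23.6 ± 8.52 CPM in Control libraries (SD, n = 6 each), with 1.23 (SE 0.24, edgeR adjusted p = 0.000423). RNASEH2B-AS1, opposite a subunit of the nuclease that removes ribonucleotides from DNA, averaged 67.6 ± 19.8 CPM in KO and 32.9 ± 9.66 CPM in Control libraries, with 1.04 (SE 0.23, edgeR adjusted p = 0.00168). The increase of RNASEH2B-AS1 separated the groups completely and that of NARF-AS2 did not. Unlike SIX3, the genes GRM3 (0.65, edgeR adjusted p = 0.132), NARF (0.25, adjusted p = 0.745) and RNASEH2B (1.11, adjusted p = 0.208) did not pass under their own names. SLC8A1, FOXD1, CADM3 and CNTN4 did not reach the count filter under their own names and were not tested.

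Of the 8 named for the largest decreases, MYLK-AS1 (ENSG00000239523, chromosome 3, 123585542 to 123644568, plus strand) lies opposite myosin light chain kinase, which drives contraction of smooth muscle and other cells. It had 8.90 to 21.0 CPM (median 13.4) in KO and 47.2 to 81.2 CPM (median 65.2) in Control libraries, with no overlap and a log2 fold change of -2.16 (SE 0.24, edgeR adjusted p = 1.09e-07). Counts under MYLK, which exceeded those under MYLK-AS1, were 90.6 ± 11.0 CPM in KO and 79.1 ± 9.71 CPM in Control libraries (SD, n = 6 each), with 0.18 (SE 0.14, adjusted p = 0.4). Only the -AS name passed the test.

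HHIP-AS1 lies opposite HHIP, the hedgehog-interacting protein that is both a target and an inhibitor of hedgehog signalling. It had 16.0 to 147 CPM (median 73.8) in KO and 277 to 340.0 CPM (median 288) in Control libraries, with -1.90 (SE 0.48, edgeR adjusted p = 0.018). KO line 1 was at 31.1 ± 15.8 CPM and KO line 2 at 131 ± 27.0 CPM (SD, n = 3 each), and this difference between KO lines passed the test, at 2.06 (SE 0.26, edgeR adjusted p = 8.27e-05). Without Control line 1 the adjusted p for genotype was 0.112, and without Control line 2 it was 0.122.

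LEF1-AS1 (ENSG00000232021, chromosome 4, 108167525 to 108256836, plus strand) lies opposite LEF1, a transcription factor of Wnt signalling. It had 65.5 to 111 CPM (median 82.0) in KO and 219.7 to 309 CPM (median 285) in Control libraries, with -1.70 (SE 0.15, edgeR adjusted p = 1.41e-09). Its highest KO library, at 111 CPM, was well below its lowest Control library. CCND2-AS1, opposite the cell cycle gene cyclin D2, had 16.1 to 38.8 CPM (median 28.5) in KO and 67.1 to 87.8 CPM (median 75.4) in Control libraries, with -1.46 (SE 0.21, edgeR adjusted p = 6.64e-06). DSG2-AS1, opposite the desmosomal cadherin desmoglein 2, had 1.59 to 13.8 CPM (median 8.86) in KO and 25.6 to 35.5 CPM (median 31.8) in Control libraries, with -1.87 (SE 0.34, edgeR adjusted p = 0.000192). All 3 had every KO library below every Control library.

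P4HA2-AS1 and PCOLCE-AS1 carry names of genes whose proteins act on collagen, a prolyl hydroxylase subunit and an enhancer of procollagen processing. P4HA2-AS1 had 11.5 to 42.3 CPM (median 18.3) in KO and 46.8 to 82.1 CPM (median 65.9) in Control libraries, with -1.68 (SE 0.25, edgeR adjusted p = 1.21e-05). PCOLCE-AS1, whose largest overlap of 895 bp is with the F-box gene FBXO24 and which shares 585 bp with PCOLCE, had 5.64 to 21.3 CPM (median 9.68) in KO and 22.0 to 46.2 CPM (median 37.7) in Control libraries, with -1.64 (SE 0.29, edgeR adjusted p = 0.000136). Under their own names PCOLCE (-3.01, edgeR adjusted p = 0.000547) and FBXO24 (-2.15, edgeR adjusted p = 0.000516) were also lower, at low levels. By the same test P4HA2 (adjusted p = 0.621), HHIP (0.714), LEF1 (0.391) and CCND2 (0.667) did not pass under their own names. STEAP3-AS1, opposite an iron-reducing enzyme gene, had 0.268 to 5.95 CPM (median 4.40) in KO and 9.12 to 19.7 CPM (median 13.0) in Control libraries, with -1.78 (SE 0.44, edgeR adjusted p = 0.00409). Its level is low, and without Control line 2 its adjusted p was 0.108. The decreases stood beside the lower means of SOX10 and TFAP2B given above, markers of neural crest, whose part in them was not tested, and COL3A1 was not lower.

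**Figure D4:**
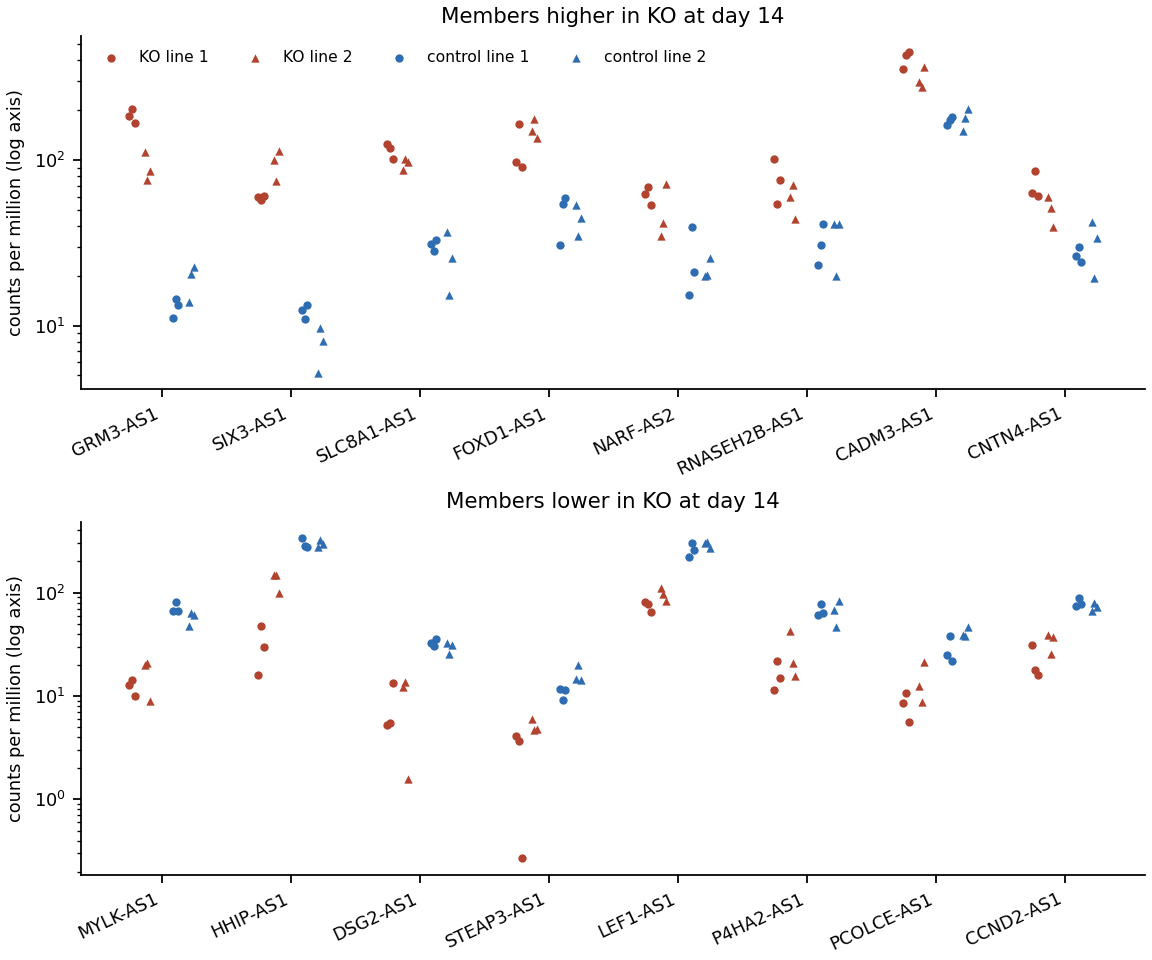
CPM (log axes) of the 16 members named for the day 14 comparison in every day 14 library, KO in red left of Control in blue, circles for line 1 and triangles for line 2. In the upper panel KO is higher, in the lower panel Control is, and KO line 1 and line 2 lie apart for GRM3-AS1 and HHIP-AS1.

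Of these 16 members 11 were not called when all 24 libraries shared a fit, a design that shares its estimate of spread with day 0. GRM3-AS1, CADM3-AS1, DSG2-AS1, STEAP3-AS1 and CCND2-AS1 did pass there. The log2 fold changes in that fit were 2.93 for SIX3-AS1, 1.89 for SLC8A1-AS1, -1.69 for LEF1-AS1 and -2.15 for MYLK-AS1, close to those above. With the coding-name percent as a covariate HHIP-AS1 (adjusted p = 0.134) and STEAP3-AS1 (0.115) did not pass, and with counts summed per line CNTN4-AS1 did not (0.0708), nor did it without Control line 1 (0.0607) or KO line 1 (0.0562). No call among the 16 was lost on leaving out any 1 library.

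Among the most abundant members, MIF-AS1 was lower in KO, with a log2 fold change of -1.20 (SE 0.16, edgeR adjusted p = 4.31e-06), and so was PCBP1-AS1, with -0.62 (SE 0.11, edgeR adjusted p = 0.000135). TNS2-AS1 (-0.51), RUSC1-AS1 (-0.61), MRPS9-AS1 (-0.61) and NIFK-AS1 (-0.66) also passed. VIM-AS1 had -0.27 (SE 0.11, adjusted p = 0.0763), RPL30-AS1 -0.07 (adjusted p = 0.718) and STARD4-AS1 -0.0045 (adjusted p = 0.984), which was 0.20 (adjusted p = 0.022) with only -AS features in the fit. Of these 9, 6 thus passed as lower and 0 as higher. Of all tested features 10.7% were lower and 11.0% higher, and of other features at 20 CPM or more 19.7% were lower and 11.7% higher. Whether these 9 differ from such features was not tested. With all 24 libraries in 1 fit TNS2-AS1 (adjusted p = 0.143), RUSC1-AS1 (0.116), NIFK-AS1 (0.319) and MRPS9-AS1 (0.0515) did not pass, and with the covariate TNS2-AS1 (0.0872), NIFK-AS1 (0.291) and MRPS9-AS1 (0.133) did not. NIFK-AS1 did not pass without Control line 1 (0.115). VIM-AS1 passed in 6 alternatives, with an adjusted p of 0.0014 with no filter, 0.0417 without Control line 1, 0.0221 without KO line 1, 0.0297 without Control line 1 replicate A, 0.0439 without KO line 1 replicate B and 0.048 without KO line 2 replicate C.

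Members were grouped by the textbook role of the gene in their name, 9 groups in all, and the examples below are called members chosen after their values were seen. The shares to read them against are those of other features at 20 CPM or more, 11.7% higher and 19.7% lower, and of all features, 11.0% and 10.7%. Among cytoskeleton and adhesion names 7 of 64 tested were higher (10.9%) and 30 lower (46.9%), with a median of -0.45. PRC1-AS1, opposite a midzone microtubule protein (-0.54), AFAP1-AS1, opposite an actin filament protein (-0.48), and VCAN-AS1, opposite the matrix proteoglycan versican (-1.04), were lower. NCAM1-AS1, opposite the neural cell adhesion molecule (0.96), and PCDHB1-AS1, opposite PCDHB2 of the protocadherins (0.54), were higher. TNS2-AS1 is in this group by its name, although its exons lie mainly opposite EIF4B.

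Among translation and ribosome names 0 of 15 were higher and 8 lower (53.3%), with a median of -0.55. NOP14-AS1, opposite a ribosome assembly factor (-0.55), and PABPC4-AS1, opposite a poly(A)-binding protein (-0.67), were lower beside NIFK-AS1 and MRPS9-AS1. Among RNA processing names 1 of 24 was higher (4.17%) and 11 lower (45.8%), with a median of -0.39. RBM5-AS1 (-0.54) and RBM25-AS1 (-0.48), opposite splicing regulators, and RBPMS-AS1, opposite an RNA-binding protein (-1.46), were lower. No difference between role groups was tested.

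Among signalling names 3 of 49 were higher (6.12%) and 13 lower (26.5%), with a median of -0.34. SEMA6A-AS1, opposite a transmembrane semaphorin (0.54), was higher, and TIRAP-AS1, opposite an adaptor of Toll-like receptors (-0.76), was lower. Among mitochondria and metabolism names 2 of 34 were higher (5.88%) and 8 lower (23.5%), with a median of -0.26. SLC25A5-AS1, opposite an ADP/ATP carrier (-0.63), and IDI2-AS1, opposite the isoprenoid gene IDI1 (-0.49), were among the lower. Among chaperone, ubiquitin and proteasome names 0 of 27 were higher and 6 lower (22.2%), with a median of -0.17, a lower share near that of other abundant features. SIAH2-AS1, opposite a ubiquitin ligase (-1.15), and CNPY2-AS1 (-0.36) were among the 6.

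In the remaining groups the lower share was also near or below that of other abundant features. Among chromatin and DNA names 3 of 42 were higher (7.14%) and 6 lower (14.3%), at a median of -0.15, with EHMT2-AS1, opposite a histone methyltransferase (-0.40), lower and MCPH1-AS1, opposite microcephalin (0.62), higher. Among transcription factor names 7 of 45 were higher (15.6%) and 7 lower (15.6%), at a median of -0.09, with ZFHX3-AS1 (0.68) and TSC22D1-AS1 (0.49) higher and KLF3-AS1 (-1.09) lower. Among membrane transport and trafficking names 4 of 39 were higher (10.3%) and 8 lower (20.5%), at a median of -0.09, with FXYD6-AS1, opposite a regulator of the sodium pump (0.45), higher and SLC7A11-AS1, opposite the cystine transporter (-1.39), lower. Of 58 tested members with no group 6 were higher and 12 lower.

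**Figure D5:**
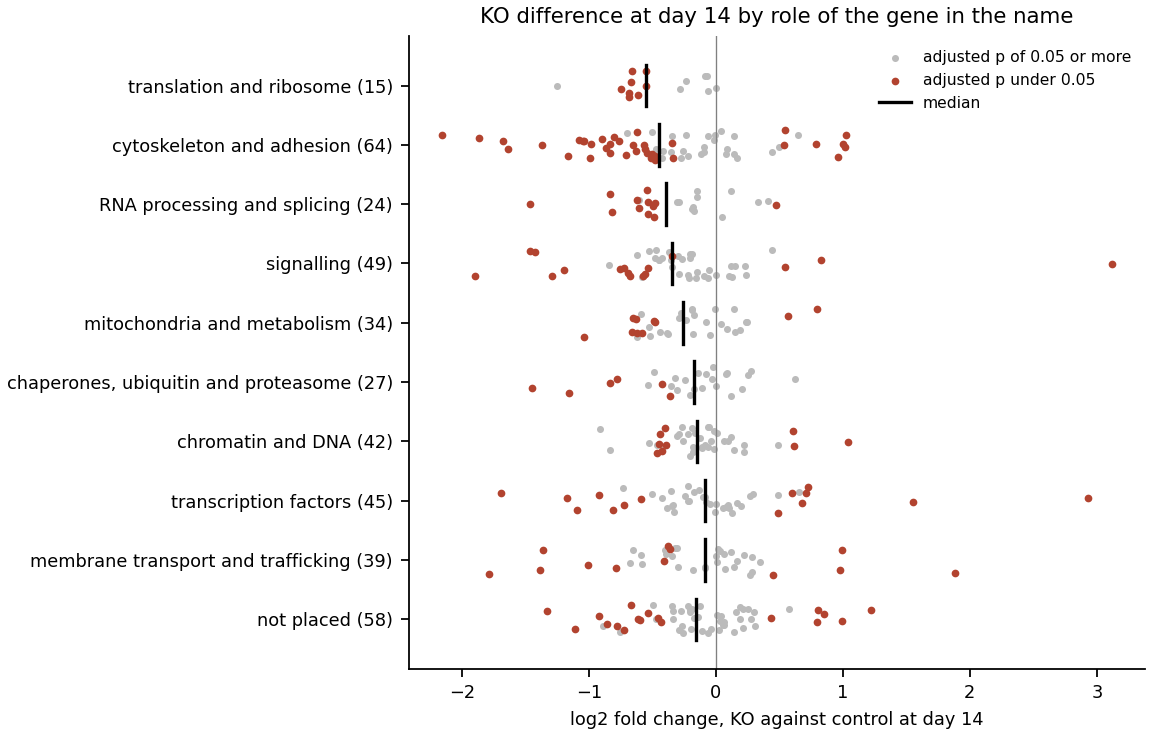
Log2 fold change of KO against Control at day 14 (horizontal) of each tested member by the role of the gene in its name, with the number tested, red points for an adjusted p under 0.05, grey for the others and a black bar at the median. Medians run from -0.55 for translation and ribosome to -0.09 for transcription factors and for membrane transport.

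Members that share a gene are not independent readings of it. GTF3C2-AS1 and GTF3C2-AS2, opposite a subunit of the RNA polymerase III factor TFIIIC, had -0.47 and -0.39 in KO against Control at day 14, and both passed. NAV2-AS2 and NAV2-AS1, opposite a neuron navigator gene, had -0.57 and -0.71, and both passed. Both RBM5-AS1 (-0.54, passed) and SEMA3F-AS1 (-0.27, adjusted p = 0.113) lie mainly opposite RBM5. ZNF32-AS2 and ZNF32-AS1, opposite a zinc finger gene, had 0.10 and 0.49, and neither passed. Of pairs named for the same gene, COL4A2-AS1 (-0.12) and COL4A2-AS2 (0.15), and HIF1A-AS3 (-0.13) and HIF1A-AS1 (0.27), had opposite signs, and none of these 4 passed.

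The same genotypes were compared as stem cells at day 0. By edgeR 0 of 376 tested members passed, with 5 at an unadjusted p under 0.05, and 0.0% of all 4832 tested features passed, with 99 at that level. DESeq2 called 0 members and 0 features. The median over members was -0.05. In simulated data for this comparison, 7.46% of features changed 2-fold and 59.1% of those changed 8-fold were called, against 38.8% and 81.8% at day 14. These rates are for tested features of any name and not for members alone. Whether a change of a few fold in a member would be called at day 0 was not tested.

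The comparison of day 14 with day 0 asked what differentiation changed. In KO lines 85 of 403 members were higher at day 14 and 162 were lower, where 46.3% of 10971 tested features passed, 29.8% higher and 16.5% lower. In Control lines 81 were higher and 140 lower, where 42.8% of features passed, 28.4% higher and 14.4% lower. The member median was -0.53 in KO lines, where that of all features was 0.65, and -0.32 in Control lines, where that of all features was 0.60. Other features at 20 CPM or more, chosen by the same level, had medians of -0.12 in KO lines and 0.02 in Control lines. Of these 3376, 876 were higher and 1141 lower in KO lines, and 871 were higher and 970 lower in Control lines. With relative log expression (RLE) scaling the split of members was 106 higher and 125 lower in KO lines and 102 higher and 116 lower in Control lines. The median of all features then moved to 1.04 in KO lines and 0.83 in Control lines. Without Control line 1, 147 members passed in Control lines, where 3476 of 13498 features did.

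The largest increases in Control lines were of members near or at 0 in stem cells. EBF3-AS1, named for a transcription factor gene and not placed in release 29, had 51.6 to 108 CPM (median 72.2) at day 14 and was at 0 in all 6 Control libraries at day 0, so it was at least 257-fold higher against a floor of 3 counts over the 6 libraries. FOXD1-AS1 was likewise at 0 at day 0 and at least 156-fold higher. ARHGEF7-AS2, opposite an exchange factor for small GTPases, had 1 count at day 0 and was 418-fold higher (exact 95% counting interval 74.8 to 16522). SLIT3-AS2, opposite an axon guidance ligand, had 2 counts at day 0 and was 230-fold higher (63.4 to 1899). These intervals cover counting error only. DIRC3-AS1, with no coding exon opposite, had 1334 to 2148 CPM (median 1670.0) at day 14 and 0.691 to 34.8 CPM (median 19.5) at day 0, with 6.03 (SE 0.66, edgeR adjusted p = 1.98e-07).

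The largest decreases included MAL2-AS1, opposite a membrane trafficking protein of polarised epithelia, with 0.589 to 2.91 CPM (median 1.36) at day 14 and 221 to 503 CPM (median 301) at day 0, a log2 fold change of -8.38 (SE 0.52, edgeR adjusted p = 5.2e-14). PYCARD-AS1, opposite the inflammasome adaptor ASC, had -5.32, GNAS-AS1, opposite the stimulatory G protein gene, -5.27, and TTN-AS1 -5.23. For all of these but TTN-AS1, every Control library of day 14 was below every Control library of day 0. GNAS counted under its own name went the other way, with 141 to 406 CPM (median 261) at day 14 and 2.13 to 26.1 CPM (median 7.05) at day 0.

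By role, 16 of 45 transcription factor names were higher and 11 lower in KO lines (median 0.20), and 18 were higher and 8 lower in Control lines (median 0.38). The other 8 groups had more decreases than increases in Control lines, and the 58 members with no group had 19 higher and 18 lower in KO lines and 16 higher and 14 lower in Control lines. Of other features at 20 CPM or more, 25.9% were higher and 33.8% lower in KO lines, and 25.8% were higher and 28.7% lower in Control lines. The split by group was taken with TMM scaling alone, and the values below are of Control lines. ZFHX3-AS1 (4.87) and ZEB2-AS1 (3.85), opposite zinc finger homeobox genes, were among the higher in Control lines. Translation and ribosome names had 0 higher and 10 lower of 15 (median -0.88), and mitochondria and metabolism names 2 higher and 15 lower of 35 (median -0.64). Chromatin and DNA names had 6 higher and 16 lower of 42, and cytoskeleton and adhesion names 17 higher and 27 lower of 65, with VIM-AS1 (3.90) and HMMR-AS1, opposite a mitotic hyaluronan receptor (-3.70), in opposite directions. Examples outside the 10 largest changes were picked after their values were seen.

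The interaction of genotype and day asked whether the genotype difference changed between days. The test passed for 6 of 403 members, 1 higher and 5 lower, where 1.47% of all tested features passed, 0.565% higher and 0.902% lower. Of members 0.248% were higher and 1.24% lower, and of other features at 20 CPM or more 0.504% were higher and 1.69% lower. Of the 5 members described here, MYLK-AS1 had -4.97 (SE 1.06, edgeR adjusted p = 0.0135), and KLF3-AS1, opposite a Krüppel-like factor, -3.23 (SE 0.79, adjusted p = 0.0314). At day 0 MYLK-AS1 averaged 11.5 ± 17.8 CPM in KO and 1.57 ± 1.52 CPM in Control libraries (SD, n = 6 each). KLF3-AS1 averaged 30.5 ± 19.4 CPM in KO and 6.22 ± 6.49 CPM in Control libraries at day 0.

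Another 3 were nearer the threshold. SLC7A11-AS1 had -1.72 (SE 0.44, edgeR adjusted p = 0.0413), DSG2-AS1 -1.69 (SE 0.42, edgeR adjusted p = 0.0359) and ARMCX3-AS1 1.23 (SE 0.33, edgeR adjusted p = 0.0497). ARMCX3-AS1, opposite a mitochondrial trafficking protein, averaged 555 ± 60.1 CPM in day 14 KO, 317 ± 31.6 in day 14 Control, 123 ± 45.1 in day 0 KO and 166 ± 69.7 in day 0 Control libraries. Of 34 alternatives the call was lost in 23 for SLC7A11-AS1, 21 for ARMCX3-AS1, 19 for DSG2-AS1, 11 for KLF3-AS1 and 5 for MYLK-AS1. The count of 6 itself ran from 2 to 12 on leaving out 1 library, lowest without Control line 1 replicate B or Control line 2 replicate B or C of day 14, and highest without Control line 1 replicate A of day 0. Of all features 91, 101 and 107 were called in the first 3 of these fits and 259 in the last.

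Lines of 1 genotype gave the background between lines. KO line 2 against KO line 1 at day 14 had 9 members higher and 6 lower of 403, where 1.23% of all features passed, 0.827% higher and 0.4% lower. The member shares, 2.23% higher and 1.49% lower, were near those of other features at 20 CPM or more, 2.03% and 1.43%. Beside HHIP-AS1 and GRM3-AS1 the members that passed included AP1G2-AS1, opposite an adaptor subunit of vesicle coats, at 227 CPM in KO line 2 and 90.8 CPM in KO line 1, and the Control lines had 381 and 422 CPM. Leaving out KO line 1 replicate B, or KO line 2 replicate A or C, left 6 or 7 members, where 116, 109 and 117 of all features passed. Control line 2 against Control line 1 had 1 member higher and 0 lower, TAB3-AS2, where 0.107% of features passed, 0.0933% higher and 0.0133% lower. With 3 libraries a line these counts are of smaller comparisons than that of genotype.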

How the data were processed

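The deposited tables hold raw counts per feature and library, whole numbers for 61248 features, and were used as deposited. Per the submitters' processing notes, bcl2fastq 2.20.0, STAR 2.7.9a, Subread 2.0.1 (featureCounts), DESeq2 1.34.0, R 3.5.1 and GRCh38 were used. The strand setting of the counting and the annotation release are not stated there or in the labels, and a read assigned to the opposite strand moves between a gene and its antisense partner. Counts were scaled with TMM, filtered with filterByExpr and tested with edgeR 4.0.16 (quasi-likelihood, robust) in R 4.3.3, with Benjamini-Hochberg adjustment over all features tested and a threshold of 0.05. Genotypes at day 14 and at day 0 were fitted separately. Days and the interaction were fitted over all 24 libraries, and lines over the 12 of day 14. Library totals ran from 1407832 to 3726227 counts.

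The alternatives tried included RLE scaling, DESeq2 1.42.0, all features without a filter, leaving out each library or line, counts summed per line, a replicate block, all libraries in 1 fit, the coding-name percent as a covariate and -AS features alone. Exon overlaps came from GENCODE release 29. Members named were the 10 with most counts, the 8 largest called changes each way at day 14, the 5 largest each way for day and interaction, and 3 on each side of the level, with direction shared by all line pairings. A few members that this rule or the text would name are not reported here. Members and lists were chosen with earlier results of these data known. The tests were tried on simulated data. Replicate letters paired libraries at day 0, where all 18 same-letter correlations were over 0.1, and not at day 14, where 3 of 18 were. No 2 replicates were duplicates, with a chi-square per degree of freedom of 5.46 to 91.2 over 24 pairs.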

Additional observations from a re-analysis of the deposited data

Results flagged for a closer look

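In 10 of 107 groups of 6 libraries looked at, 1 library stood far from the other 5, where chance gives about 1 in 20. STARD4-AS1 had a lowest day 14 Control library of 6104 CPM and a highest day 0 Control library of 3914 CPM. VIM-AS1 had a highest day 0 KO library of 700.4 CPM, RPL30-AS1 a lowest day 14 Control library of 712 CPM and MRPS9-AS1 a highest day 0 Control library of 3256 CPM. KLF3-AS1 and MYLK-AS1 each had 1 high day 0 KO library, at 68.3 and 46.5 CPM, in KO line 1 replicate B and KO line 2 replicate B. P4HA2-AS1 had a highest day 14 KO library of 42.3 CPM. ARHGEF7-AS2 and SLIT3-AS2 were above 0 in 1 day 0 Control library each, at 0.710 CPM (1 count) and 1.03 CPM (2 counts).

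By edgeR, 5 members described here had a genotype difference that changed between day 14 and day 0. The difference of log2 fold changes was 1.23 for ARMCX3-AS1, -1.69 for DSG2-AS1, -1.72 for SLC7A11-AS1, -3.23 for KLF3-AS1 and -4.97 for MYLK-AS1. Without KO line 1 replicate B of day 0, its high library, KLF3-AS1 had -2.85 and did not pass (edgeR adjusted p = 0.0562). KLF3-AS1 also did not pass without any 1 of 6 day 14 libraries (0.0517 to 0.0551). MYLK-AS1 passed on leaving out each library in turn, its high library included.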

How the results depend on the processing

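Of single-member results under alternatives, 1404 kept direction and side of the threshold, 116 kept direction and were no longer past it, 6 kept direction and came past it, and 1 reversed. That 1 was STARD4-AS1 in KO against Control at day 14, at 0.20 (edgeR adjusted p = 0.022) with -AS features alone in the fit, an alternative chosen after seeing the data. The 142 members called there became 16 with all 24 libraries in 1 fit, 82 with the coding-name percent as a covariate, 78 with counts summed per line, 93 without Control line 1 and 91 without Control line 2, and 124 to 155 on leaving out 1 library. Of all features 2474 of 11408 were called in the main fit and 241 of 10971 with all libraries in 1 fit. With the covariate 1393 of 11408 were called, and with counts summed per line 1414 of 19582. Without Control line 1 it was 1552 of 14102, without Control line 2 1266 of 14157, and 2113 to 2551 on leaving out 1 library. Day 0 gave 0 called members under every alternative run. The 247 for day in KO became 226 to 255 on leaving out 1 library, and the 221 in Control 208 to 229, or 147 without Control line 1. Of all features 4699 of 10971 were called for day in Control in the main fit, and 3476 of 13498 without Control line 1. The 6 for the interaction became 17 with DESeq2, 15 with no filter, 1 with counts summed per line, 2 without Control line 1, 0 without Control line 2, 1 without KO line 1 and 3 without KO line 2. Of all features 161 of 10971 were called in the main fit, 546 of 16199 with DESeq2 and 792 of 41847 with no filter. With counts summed per line it was 24 of 19836, without Control line 1 40 of 13498 and without Control line 2 16 of 14085. Without KO line 1 it was 23 of 12736, and without KO line 2 58 of 12771. The 6 members became 2 to 12 on leaving out 1 library, with 3 without Control line 2 replicate A, KO line 1 replicate A or B, or KO line 2 replicate C of day 14. The 15 between KO lines became 29 with DESeq2 and 6 to 22 on leaving out 1 library, and the 1 between Control lines 2 with DESeq2, 2 with no filter and 0 to 1 on leaving out 1 library, 0 without Control line 1 replicate A. Of all features 184 of 15000 were called between KO lines in the main fit and 325 of 8366 with DESeq2. Between Control lines it was 16 of 15000 in the main fit, 20 of 11398 with DESeq2 and 42 of 40325 with no filter. With the replicate block the counts were 135 for KO against Control at day 14, 0 at day 0, 9 for the interaction and 8 between KO lines, and at day 0, where the letters pair libraries, the block changed no call. Of all features the block gave 2256 of 11408 at day 14, 0 of 4832 at day 0, 125 of 10971 for the interaction and 139 of 15000 between KO lines. More counts lay under the -AS name in 248 of 255 members at 50 CPM or more, a direction that the higher level itself favours. The cause of these changes was not tested. Day 0 libraries had lower totals than day 14 libraries and a larger common coefficient of variation between replicates, 0.736 against 0.383 at day 14, and the part of either in the 0 calls was not tested.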
